A study of Mus musculus with 15 samples.

Results

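Cytosolic ribosomal proteins build the small and the large subunit of the ribosome that translates messenger RNA in the cytoplasm. Their genes lie scattered over the chromosomes and are known for being expressed together. Most of their mRNAs begin with a 5′ terminal oligopyrimidine (TOP) tract, a run of C and T at the start of transcription through which mTOR and its partner Larp1 control their translation and stability, and Myc is a known activator of ribosome production in growing cells. The genes described here are those of the deposited table whose symbols begin with Rpl or Rps and a digit, together with Rplp0, Rplp1, Rplp2 and Rpsa, after leaving out S6 kinases, binding proteins and names with a hyphen. This rule used names and no measured value. It gave 84 of the 20308 genes in the table, and 80 of the 84 were among the 14151 genes whose 75th percentile over the libraries was above 10.

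RNA was measured in whole pancreatic islets of C57BL/6 mice 48 hr after adenoviral transduction with GFP (the negative control), ca-Nfatc1 or ca-Nfatc2. The latter carry constitutively active forms of NFAT, transcription factors that calcineurin normally activates, in which serines of the regulatory domain are changed to alanine. There were 15 libraries, 5 in each group, and replicates 1 to 5 stand for 5 days. On a given day, islets from 6 mice were combined and shared among the viruses, so that replicates with 1 number come from the same mice. No islets without virus are among these libraries, the CMV promoter that drives the transgenes is not specific to a cell type, and RNA of whole islets mixes endocrine and other cells. In such bulk RNA, fewer cells of a type and less RNA per cell cannot be told apart.

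Values are expected counts after the authors' normalization, and the libraries held 13.4 to 21.1 M expected counts. Nfatc1 lay between 24705 and 29292 with ca-Nfatc1 and below 424 in every other library, and Nfatc2 lay between 37600 and 89098 with ca-Nfatc2 and below 694 elsewhere. Genes that mark beta cells (Ins1, Ins2, Iapp, Mafa, Slc2a2 and Ucn3) were detected in every group, with a summed signal of 1111000 to 1653810 with GFP, 775584 to 1163890 under ca-Nfatc1 and 520502 to 937365 under ca-Nfatc2. Of these 6 genes, 5 were lower with ca-Nfatc1 than with GFP and 6 were lower with ca-Nfatc2. Leukocyte markers summed to between 882 and 1430 with GFP, 1363 and 1924 under ca-Nfatc1, and 1203 and 1399 under ca-Nfatc2. For duct markers, of which 3 of the 4 tested rose and 1 fell with either ca-NFAT, the sums were 5451 to 6396, 5817 to 8925 and 3256 to 8147. The delta cell markers Sst and Hhex and the PP cell marker Ppy fell with both ca-NFATs. The sums for delta cells were 14278 to 28430 with GFP, 4494 to 7071 under ca-Nfatc1 and 1851 to 3929 under ca-Nfatc2, and those for PP cells 37806 to 51580, 25323 to 30955 and 15640 to 25241. With ca-Nfatc2 3 of 4 endothelial markers fell (sums of 1901 to 2819, 1602 to 2361 and 1331 to 1870), as did 3 of 4 mesenchymal markers, where 1 of 4 fell with ca-Nfatc1 (2562 to 4253, 2315 to 4423 and 1656 to 3014). Of 4 acinar markers tested 3 rose and 1 fell with ca-Nfatc1 and 1 fell with ca-Nfatc2, and their sums were 100 to 176 with GFP, 60.6 to 559 and 52.8 to 92.9. Alpha cell markers are not reported here. No marker found in the table was at 0 in all libraries. The part of these shifts in the values below was not tested.

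The start regions of 9 genes are shown first because a pyrimidine run near the start is the sequence feature by which TOP mRNAs are known, and because these 9 include the genes that moved most and least with the rest. Each line gives up to 30 bases, 5′ to 3′ on the gene's own strand, from the RefSeq promoter table (build GRCm38.p6). Capitals mark the longest run of C and T found between 30 bases before and 50 bases after the annotated start.

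Rps13: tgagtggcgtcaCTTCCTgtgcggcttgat
Rpl24: gaagtgacatcaTCTCTgggcgccggggtc
Rps16: ccgtaaagcccgCTTCTgtcgtgacgtagc
Rplp0: ggaccgcctggTTCTCCTataaaaggcaca
Rpsa: ccggccgcccgTCCTTTCgcgctacccggg
Rps6: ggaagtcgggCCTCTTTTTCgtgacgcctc
Rpl36al: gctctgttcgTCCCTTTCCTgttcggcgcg
Rps12: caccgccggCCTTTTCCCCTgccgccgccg
Rpl7a: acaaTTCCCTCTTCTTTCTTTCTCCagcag

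The window of Rps13 is at chr7:116334161-116334190 on the minus strand and that of Rpl24 at chr16:55966295-55966324 on the plus strand. Rps16 (chr7:28350666-28350695), Rplp0 (chr5:115559467-115559496), Rpsa (chr9:120127775-120127804) and Rpl7a (chr2:26910789-26910818) are read on the plus strand. Rps6 (chr4:86857349-86857378), Rpl36al (chr12:69184020-69184049) and Rps12 (chr10:23787181-23787210) are read on the minus strand. The longest run had 5 bases in Rpl24 and Rps16, 6 in Rps13, 7 in Rplp0 and Rpsa, 10 in Rps6 and Rpl36al, 11 in Rps12 and 21 in Rpl7a. An annotated start can lie some bases away from the true one, so a short run says only that no longer one is in this window.

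Of the 80 genes past the filter, 60 had an entry in that table, with 71 start regions between them. A run of 8 or more C or T was found in 50 of the 71 regions (70.4%) and in 29.0% of all 32851 regions of the table. This run was sought on the gene's own strand in the 30 bases before to 50 after the start. The motifs were sought on both strands in all 300 bases of a region (250 before and 50 after the start), beginning with GGAAA, the core letters of an NFAT site, which 59 of 71 held (83.1%, against 61.3% of all regions). CCGGAA, the letters of an ETS site that shares GGAA with it, was in 34 (47.9%, against 14.9%), and CACGTG, the E-box that Myc binds, was in 8 (11.3%, against 7.15%). On the other strand GGAAA reads TTTCC, which can lie within a run of C and T, as it does in the runs of Rpl36al and Rps12. The counts for GGAAA and for the run thus overlap, and how many of the 59 matches lie in such a run was not counted. These matches describe the letters and not binding. The 47 genes with a run of 8 or more in at least 1 region had a median log2 fold change of 0.46 with ca-Nfatc2 and −0.15 with ca-Nfatc1, against 0.43 and −0.20 for the other 13, a group that holds Rps13, Rpl24, Rplp0, Rpsa and Rps16.

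Ribosomal protein transcripts took a larger share of the signal with ca-Nfatc2 than with GFP or ca-Nfatc1. On days 1 to 5 the 84 genes together made up 3.58, 3.81, 3.28, 3.66 and 3.37% of a library's signal with GFP. With ca-Nfatc1 the shares were 3.61, 3.48, 2.75, 3.70 and 3.18%, and with ca-Nfatc2 they were 5.36, 4.76, 4.87, 5.47 and 5.19%. All 5 ca-Nfatc2 libraries thus lay above the other 10, while those of GFP and ca-Nfatc1 overlapped. The means were 3.54 ± 0.218% (SD, n = 5) with GFP, 3.35 ± 0.389% under ca-Nfatc1 and 5.13 ± 0.308% under ca-Nfatc2. Islet hormone transcripts make up a large part of each total and also fell, so the share was recomputed after leaving Ins1, Ins2, Gcg, Iapp, Sst, Ppy, Pyy, Nfatc1 and Nfatc2 out of the total. It then came to 3.99, 3.61 and 5.44%. As a sum over members this share was given no test.

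**Figure D1:**
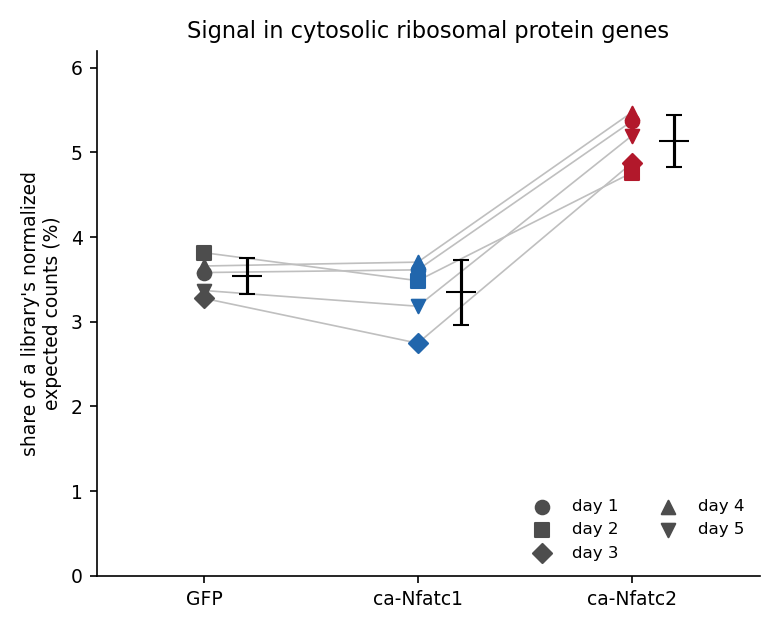
Share of each library's normalized expected counts (y axis, %) in the 84 ribosomal protein genes, by group (x axis). Each point is 1 library, symbols stand for the days, grey lines join libraries of 1 day, and black bars give the mean ± SD (n = 5). The ca-Nfatc2 libraries lie between 4.76 and 5.47% and the others between 2.75 and 3.81%, the lowest being ca-Nfatc1 replicate 3.

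With ca-Nfatc2, 70 of the 80 genes rose relative to GFP, 1 fell (Rpl24) and 9 did not pass the test (limma on log2 values, Benjamini-Hochberg adjusted p under 0.05 over all 14151 genes). Over all genes tested, 35.7% were higher and 32.8% lower in that comparison. The median log2 fold change of the 80 genes was 0.47, a ratio of 1.38, and their quartiles were 0.33 and 0.61, whereas the median over all genes tested was 0.01. In 63 of the 80 every ca-Nfatc2 library lay above every GFP library, which held for 27.7% of all genes tested. By day, 79, 64, 78, 79 and 79 of the 80 were higher with ca-Nfatc2 than with GFP, the smallest median difference being that of day 2 (0.22, against 0.50 to 0.61 on the other days). Over all genes tested the median differences by day were 0.0026 to 0.017.

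With ca-Nfatc1 most of the genes lay slightly below GFP, and how many passed the test depended on the fit. There were 3 that rose (Rps13, Rpl35a and Rps16), 23 that fell and 54 that did not pass, where 28.4% of all genes tested were higher and 28.4% lower. In this fit without a day term, the share of members that fell was thus near that of all genes, and the share that rose was below it. The median log2 fold change was −0.18 (all genes tested, −0.02), and 74 of the 80 estimates were negative. Among all 14151 genes tested, 7391 estimates were negative. In 7 of the 80 every ca-Nfatc1 library lay below every GFP library, which held for 19.9% of all genes tested. With the day as a block, 44 of the 80 fell, a larger share than the 33.4% of all genes tested, and 4 rose (31.4%). The number that fell also depended on single libraries. It was 13 without GFP replicate 1, 10 without GFP replicate 2, 13 without GFP replicate 4, 10 without ca-Nfatc1 replicate 3 and 11 without ca-Nfatc1 replicate 5, but 35 without ca-Nfatc1 replicate 1 and 36 without ca-Nfatc1 replicate 4. After scaling the libraries to equal totals 13 fell and 5 rose, and after scaling them to equal medians 48 fell and 1 rose. The number that rose was 5 without ca-Nfatc1 replicate 3, and 1 without any of GFP replicates 3 and 5 or ca-Nfatc1 replicates 1, 2 and 4. The day 3 library with ca-Nfatc1 was the lowest of all 15 in the median of the members, and the median difference from GFP by day was −0.10, −0.21, −0.39, −0.03 and −0.16.

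Set against each other, the ca-NFATs differed at nearly every gene. Relative to ca-Nfatc1, 78 of the 80 were higher with ca-Nfatc2 and 2 did not pass (Rpl24 and Rpl35a), where 23.6% of all genes tested were higher and 25.7% lower. In limma 0 were lower, also at an unadjusted p under 0.05. The median log2 fold change was 0.62 (all genes tested, −0.04), and in 75 of the 80 every ca-Nfatc2 library was above every ca-Nfatc1 library (18.3% of all genes tested). The comparisons with GFP share the same 5 control libraries. By both calls, 14 genes were lower with ca-Nfatc1 and higher with ca-Nfatc2, 53 were higher with ca-Nfatc2 and did not pass with ca-Nfatc1, and 8 were lower with ca-Nfatc1 and did not pass with ca-Nfatc2. A further 3 were higher and 1 was lower with both, and 1 (Rpl30) passed in neither. Joint counts over all genes tested were not made, so these have no share of all genes beside them.

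**Figure D2:**
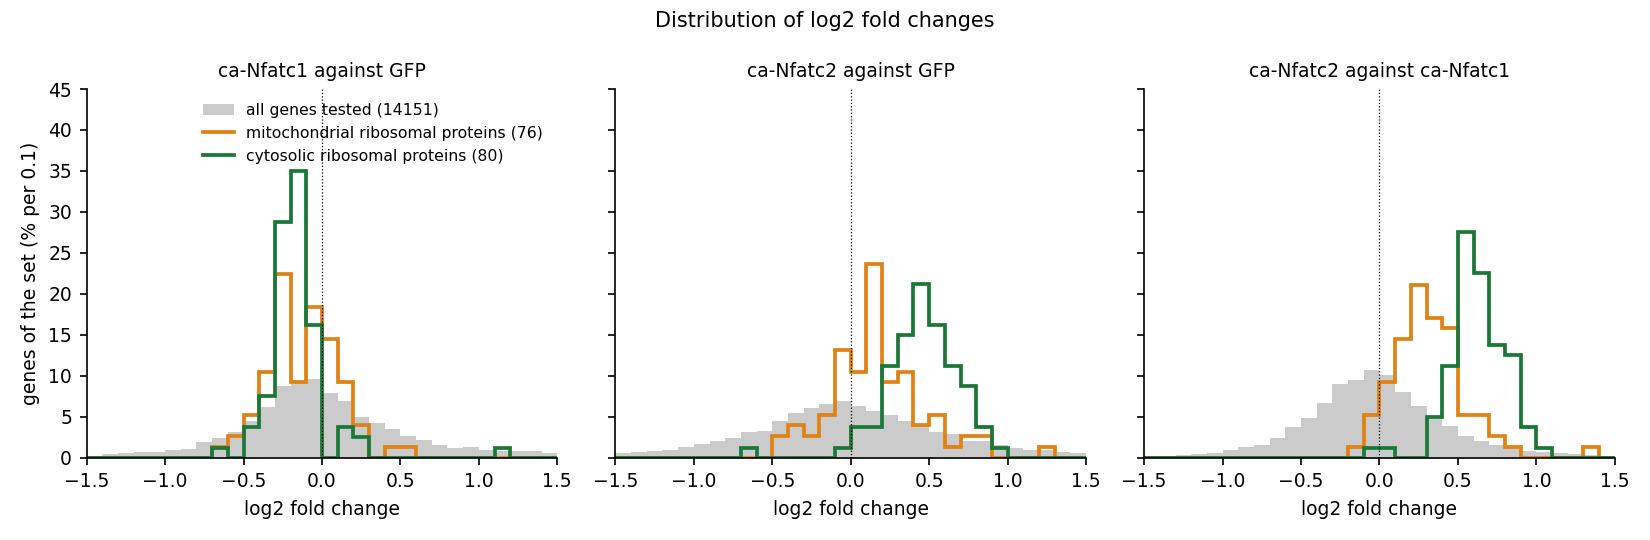
Distribution of log2 fold changes (x axis) for the 80 cytosolic and 76 mitochondrial ribosomal protein genes and for all 14151 genes tested, as the percentage of each set per bin of 0.1 (y axis). The range is limited to −1.5 to 1.5, which leaves out Rps13 (1.62) and the highest mitochondrial gene (1.75) in the middle panel and the tails of all genes tested in each. The cytosolic genes are centred at −0.18, 0.47 and 0.62 from left to right, and all genes tested at −0.02, 0.01 and −0.04.

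The spread of the members among libraries was larger with ca-Nfatc1 than in the other groups. The median coefficient of variation over the 80 genes was 8.47% with GFP, 14.3% under ca-Nfatc1 and 7.59% under ca-Nfatc2, where other genes with a mean of at least 1000 had 8.16, 8.03 and 8.10%. The 80 genes share the same libraries, so 1 library can widen the spread of many of them. In ca-Nfatc1 replicate 3 the members had their lowest share of the signal (2.75%), and the spread without that library was not computed.

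Counts and medians were close for the large and the small subunit, and their difference was not tested. Of 43 large subunit genes (without the stalk and the paralogues), 37 rose and 1 fell with ca-Nfatc2, and 1 rose and 11 fell with ca-Nfatc1. Of 30 small subunit genes 28 rose with ca-Nfatc2, and 2 rose and 8 fell with ca-Nfatc1. Their median log2 fold changes with ca-Nfatc2 were 0.46 and 0.51, and with ca-Nfatc1 they were −0.17 and −0.18. Over all genes tested, 35.7% rose and 32.8% fell with ca-Nfatc2, and 28.4% rose and 28.4% fell with ca-Nfatc1. Without a day term, the share that fell with ca-Nfatc1 was thus near that of all genes in both subunits. With the day as a block, 21 of the 43 large and 17 of the 30 small subunit genes fell, where 33.4% of all genes tested fell.

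The gene that departed most was Rps13, which encodes a small subunit protein and lies at chr7:116331507-116334190. Its normalized expected counts were 5321, 5324, 4896, 4942 and 4806 with GFP. They were 12616, 11803, 9125, 12095 and 11066 with ca-Nfatc1, and 15467, 14908, 14969, 16243 and 15907 with ca-Nfatc2. No 2 groups overlapped. Rps13 was 2.24 times its GFP mean with ca-Nfatc1 (limma log2 fold change 1.16 ± 0.08 SE, adjusted p = 4.07e-10) and 3.06 times with ca-Nfatc2 (1.62 ± 0.08, adjusted p = 3.08e-12). It was also higher with ca-Nfatc2 than with ca-Nfatc1, by 0.46 (adjusted p = 7.85e-05). No other member exceeded a log2 fold change of 0.30 with ca-Nfatc1 or 0.98 with ca-Nfatc2.

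Rpl24, which encodes a large subunit protein and lies at chr16:55966275-55971437, went the other way and was the only member to fall with ca-Nfatc2. Its values were 1381, 1420, 1325, 1331 and 1362 with GFP, 907, 965, 847, 831 and 902 under ca-Nfatc1 and 833, 863, 909, 858 and 871 under ca-Nfatc2. Both ca-NFAT groups lay wholly below GFP and overlapped with each other. The log2 fold change was −0.62 ± 0.05 with ca-Nfatc1 (limma adjusted p = 2.01e-08) and −0.65 ± 0.05 with ca-Nfatc2 (adjusted p = 6.41e-09). Between the ca-NFATs it differed by −0.04, with a 95% interval of −0.15 to 0.07 (adjusted p = 0.593).

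Both genes have close copies in the genome. In GENCODE transcripts, 78.6% of all 75-base windows of Rps13 and 80.9% of those of Rpl24 also occur in transcripts of other genes, none of which is named in the table. Over the 80 genes this percentage had a median of 41.6 and was above 50 in 31. Its correlation with the log2 fold change across these 80 genes was weak (Pearson r 0.09 with ca-Nfatc1 and 0.14 with ca-Nfatc2, Spearman rho 0.04 and 0.22), and the points share libraries. RSEM divides reads that match several transcripts of its reference by estimation. Whether that reference held any copy of Rps13 or Rpl24, and where reads of such copies were counted, was not examined here.

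The transcripts for the proteins of the stalk (Rplp0, Rplp1 and Rplp2), which recruits elongation factors to the large subunit, all rose with ca-Nfatc2. Rplp0 had 11993, 12618, 11465, 11743 and 11760 with GFP, 12590, 10900, 9832, 12366 and 11197 under ca-Nfatc1 and 24625, 21860, 22017, 27145 and 22572 under ca-Nfatc2. The ca-Nfatc2 libraries stood apart from the rest, and GFP and ca-Nfatc1 overlapped. The difference from GFP was 0.98 ± 0.08 on the log2 scale with ca-Nfatc2 (limma adjusted p = 3.9e-09) and −0.07 with ca-Nfatc1, with a 95% interval of −0.23 to 0.09 (adjusted p = 0.444). Rplp1 rose by 0.47 with ca-Nfatc2 (adjusted p = 0.000295) and fell by 0.31 with ca-Nfatc1 (adjusted p = 0.00976). Rplp2 rose by 0.34 with ca-Nfatc2 (adjusted p = 0.00709), though GFP replicates 3 (4042) and 4 (4367) exceeded ca-Nfatc2 replicate 1 (4001). With ca-Nfatc1 its log2 fold change was −0.23 (adjusted p = 0.0656, and 0.0125 with the day as a block), and it passed without GFP replicate 1 (0.00786) or 5 (0.0309) or ca-Nfatc1 replicate 4 (0.0465). A share of 23.1% of its windows is found in Wdr89, a gene of the table.

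Rpsa, a small subunit protein that also serves as a laminin receptor, had 15379, 16736, 14173, 15371 and 14191 with GFP, 14611, 13957, 11484, 14908 and 12617 under ca-Nfatc1 and 28489, 25195, 25551, 28101 and 26458 under ca-Nfatc2. Its ca-Nfatc2 mean was 1.76 times that of GFP, without overlap (0.82 ± 0.08 on the log2 scale, limma adjusted p = 4.86e-08). With ca-Nfatc1 the value was −0.17 (adjusted p = 0.0714, and 0.0199 with the block), and it passed without ca-Nfatc1 replicate 1 (0.0488) or 4 (0.0407). Other large rises with ca-Nfatc2 were those of Rpl29 (0.84), Rpl10a (0.81) and Rpl36a (0.78). Between the ca-NFATs the largest differences were in Rplp0 (1.06), Rpsa (0.99), Rpl10a (0.99), Rpl36 (0.92), Rps18 (0.88) and Rpl36a (0.87).

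**Figure D3:**
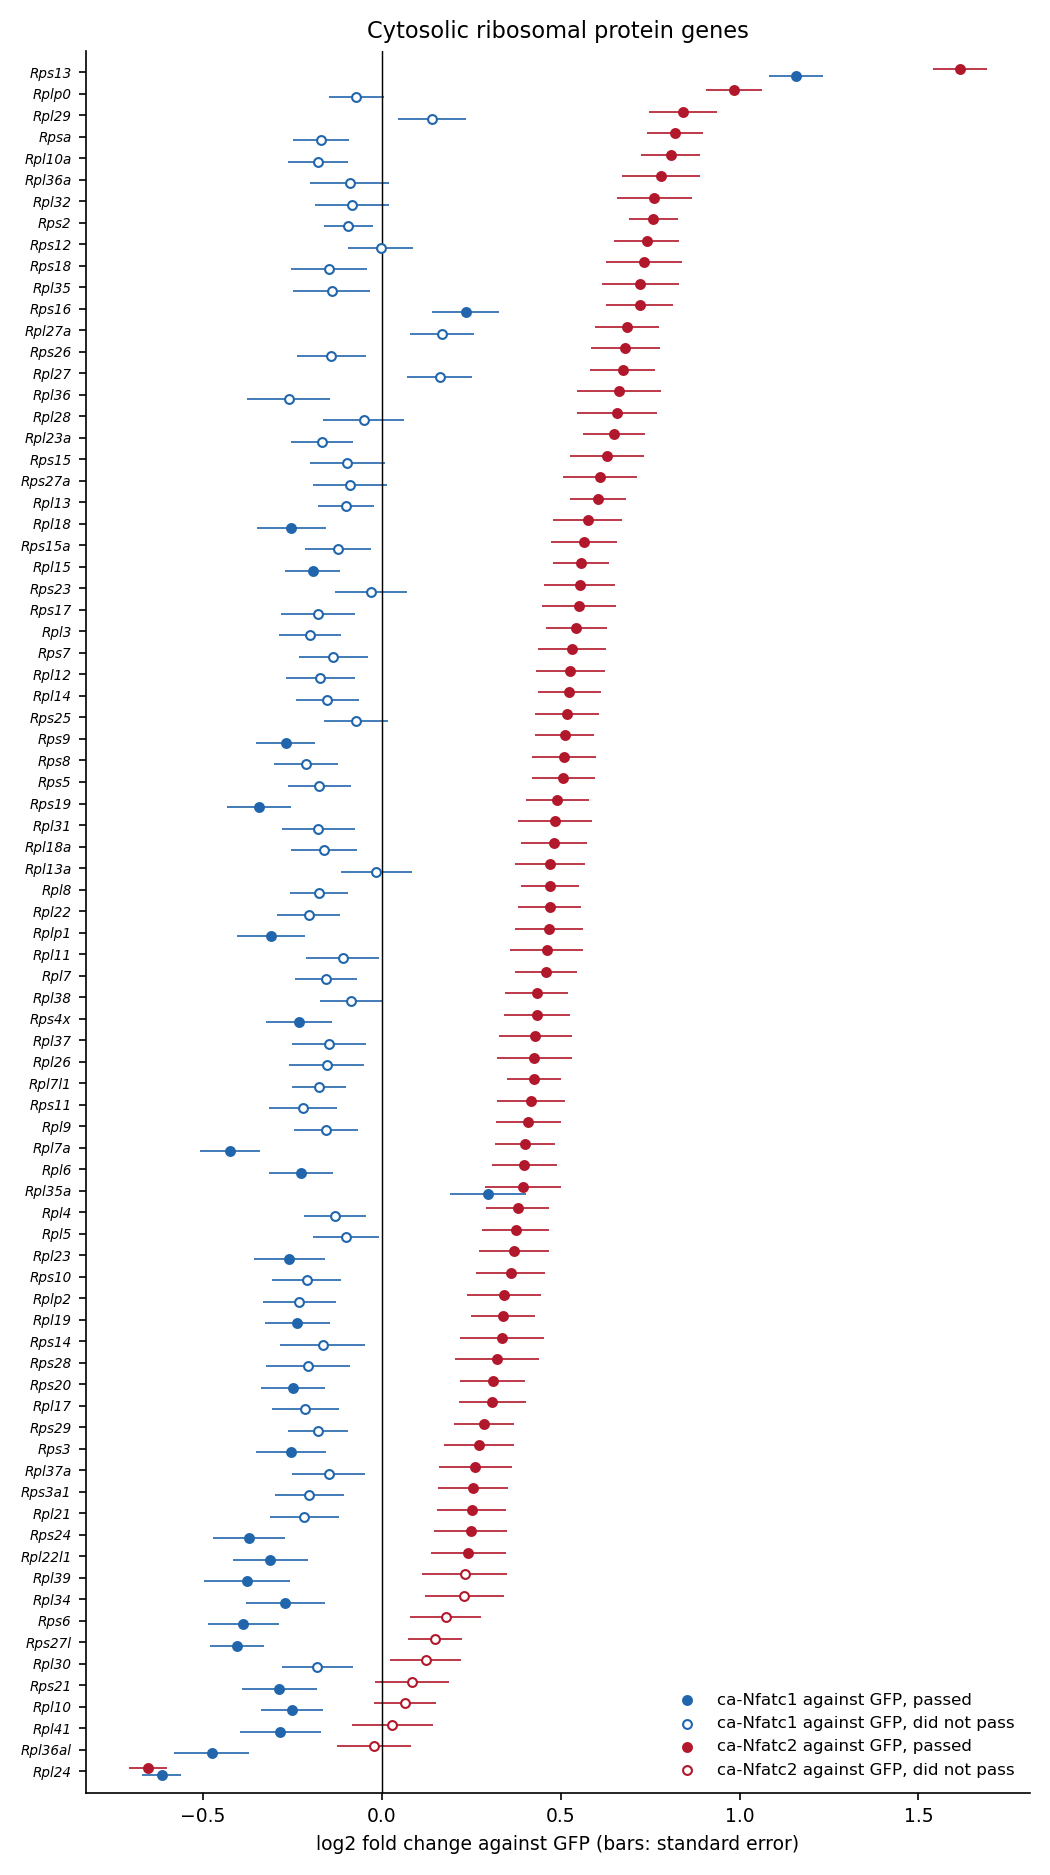
Log2 fold change against GFP (x axis) of the 80 ribosomal protein genes (y axis, ordered by the change with ca-Nfatc2), for ca-Nfatc1 in blue and ca-Nfatc2 in red. Bars give the standard error (n = 5 libraries a group), and filled points passed an adjusted p of 0.05. Red points fill 71 rows, of which only Rpl24 lies left of 0, and blue points fill 26, of which Rps13, Rpl35a and Rps16 lie right of 0.

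Rpl7a, which encodes a large subunit protein, moved in opposite directions. Its values were 9983, 8928, 8347, 9036 and 9057 with GFP, 7576, 6939, 5638, 7504 and 6308 under ca-Nfatc1 and 13181, 11116, 11208, 13071 and 11384 under ca-Nfatc2, and no 2 groups overlapped. It fell by 0.42 ± 0.08 on the log2 scale with ca-Nfatc1 (limma adjusted p = 0.000324) and rose by 0.40 ± 0.08 with ca-Nfatc2 (adjusted p = 0.00039). Rps19, which is mutated in Diamond-Blackfan anaemia in humans, did likewise at −0.34 and 0.49. Such opposite calls were made for 14 genes in all, and were not counted over all genes tested.

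Rps6, the substrate of S6 kinase, had 18182, 18513, 15446, 17169 and 15708 with GFP and 14205, 14312, 10114, 14705 and 12085 with ca-Nfatc1, so that each ca-Nfatc1 library was below each GFP library. With ca-Nfatc2 it had 20681, 16972, 18130, 20752 and 19754, which overlapped with GFP. Against GFP limma gave −0.39 ± 0.10 on the log2 scale for ca-Nfatc1 (adjusted p = 0.00287). For ca-Nfatc2 the estimate was 0.18, with a 95% interval of −0.03 to 0.39 (adjusted p = 0.118, and 0.0413 with the day as a block). Rps6 was 1 of the 9 genes that did not pass with ca-Nfatc2, the others being Rpl36al, Rpl41, Rpl10, Rpl30, Rps27l, Rpl39, Rps21 and Rpl34. Rps21 and Rpl34 fell outside the rule for named genes and are listed to complete the count. With the day as a block Rpl34 passed (adjusted p = 0.0492, and 0.0728 without it). The values with ca-Nfatc2 were 0.03 (95% interval −0.21 to 0.27) for Rpl41, the smallest of these proteins, and 0.06 (−0.12 to 0.25) for Rpl10, which joins the large subunit late in its assembly. Both were lower with ca-Nfatc1 than with GFP (−0.28 and −0.25, adjusted p = 0.0417 and 0.0202). These calls were lost without GFP replicate 2 and without ca-Nfatc1 replicates 3 or 5. That of Rpl41 was also lost without GFP replicates 1 or 4, without ca-Nfatc1 replicate 2 and without ca-Nfatc2 replicate 5.

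Besides Rps13, Rpl35a and Rps16 rose with ca-Nfatc1. Rpl35a had 5693, 6012, 4925, 5353 and 4629 with GFP, 7864, 7306, 5090, 6980 and 5718 under ca-Nfatc1 and 7385, 6212, 6771, 7338 and 7209 under ca-Nfatc2. The change was 0.30 ± 0.11 with ca-Nfatc1 (limma adjusted p = 0.0235), in groups that overlapped, and 0.40 ± 0.11 with ca-Nfatc2 (adjusted p = 0.00304). Between the ca-NFATs it was 0.10, with a 95% interval of −0.12 to 0.32. Rps16 rose by 0.23 with ca-Nfatc1 (adjusted p = 0.0421) and by 0.72 with ca-Nfatc2 (adjusted p = 2.61e-06). With ca-Nfatc1, both calls were lost without GFP replicates 3 or 5 and without ca-Nfatc1 replicates 1, 2 or 4, and that of Rps16 also without ca-Nfatc2 replicate 5. Both were lost with libraries scaled to equal medians (adjusted p = 0.078 and 0.147), and that of Rps16 without a filter (0.0536) and in a fit of the 2 groups alone (0.0627). Least changed by ca-Nfatc1 were Rps12 (0.00, 95% interval −0.19 to 0.19), Rpl13a (−0.02) and Rps23 (−0.03), which rose by 0.74, 0.47 and 0.55 with ca-Nfatc2.

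**Figure D4:**
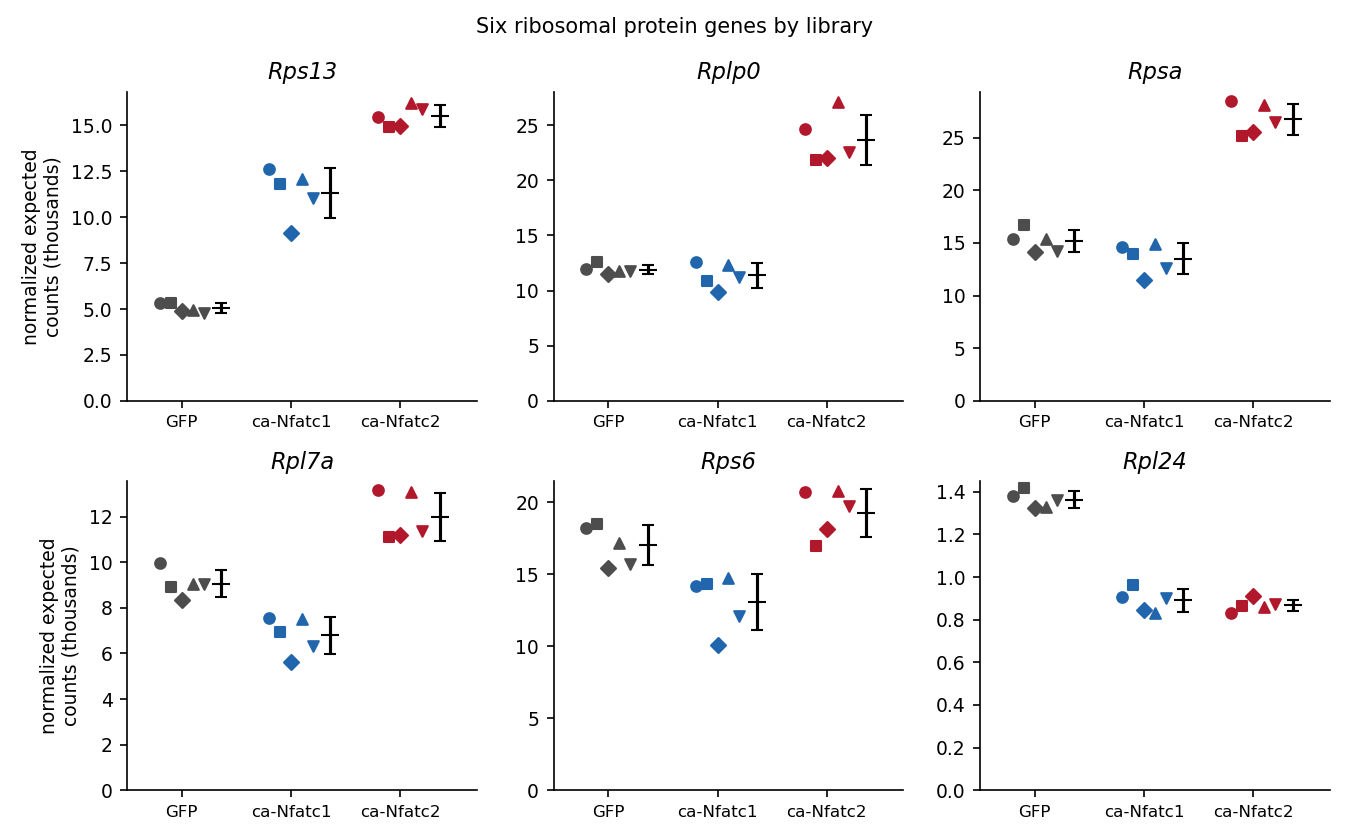
Normalized expected counts divided by 1000 (y axis, from 0) of Rps13, Rplp0, Rpsa, Rpl7a, Rps6 and Rpl24 in each library, by group (x axis). Symbols stand for the days as in the plot of shares, and black bars give the mean ± SD (n = 5). Rps13 is higher and Rpl24 lower in both ca-NFAT groups, and the other genes have their highest mean with ca-Nfatc2.

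Some ribosomal proteins are known for roles outside the ribosome. Rpl5, Rpl11 and Rpl23, which can bind Mdm2 and so stabilise p53, rose by 0.37, 0.46 and 0.37 (limma adjusted p = 0.00176, 0.000621 and 0.00296). Their values with ca-Nfatc1 were −0.10, −0.11 and −0.26, of which only that of Rpl23 passed (adjusted p = 0.0328), and not without GFP replicates 1, 2 or 4 or without ca-Nfatc1 replicates 3 or 5. Rps27a, made as a fusion with ubiquitin, rose by 0.61 with ca-Nfatc2. Rps3, which also acts in DNA repair, fell by 0.25 with ca-Nfatc1 and rose by 0.27 with ca-Nfatc2 (adjusted p = 0.0341 and 0.0198). The fall was lost without GFP replicates 1, 2 or 4 or ca-Nfatc1 replicates 3 or 5, and the rise without GFP replicates 3 or 5. With quantile normalization the rise was 0.11 (adjusted p = 0.185), with equal medians its adjusted p was 0.0774, and with equal totals that of the fall was 0.0708. Rps4x, the X-linked form, fell by 0.23 with ca-Nfatc1 (adjusted p = 0.0389, lost without the same 5 libraries as the fall of Rps3) and rose by 0.43 with ca-Nfatc2. Rps14 and Rps26 rose by 0.34 and 0.68 (Rps14 not with equal medians, adjusted p = 0.055), and Rpl3, Rpl26, Rpl38 and Rps25 rose by 0.54, 0.43, 0.43 and 0.52.

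Of the paralogues, near copies of a ribosomal protein encoded by another gene, 7 are in the table and 4 were tested. Rpl36al had 3588, 3628, 3151, 3332 and 3126 with GFP, 2750, 2706, 1835, 2553 and 2352 under ca-Nfatc1 and 3602, 2697, 3201, 3693 and 3437 under ca-Nfatc2. It fell with ca-Nfatc1 (−0.48 ± 0.10, limma adjusted p = 0.000791), without overlap, and stood at −0.02 with ca-Nfatc2 (95% interval −0.24 to 0.20). Its partner Rpl36a had −0.09 with ca-Nfatc1 and rose by 0.78 with ca-Nfatc2. Rps27l, which p53 activates in human cells, fell by 0.40 with ca-Nfatc1 (adjusted p = 0.00019) and had 0.15 with ca-Nfatc2 (adjusted p = 0.0923, passing without GFP replicate 2 at 0.044 or ca-Nfatc1 replicate 3 at 0.0385). Rpl39 fell by 0.38 with ca-Nfatc1 (adjusted p = 0.0123) and had 0.23 with ca-Nfatc2 (adjusted p = 0.0939, passing without ca-Nfatc1 replicate 3 at 0.0411 or ca-Nfatc2 replicate 2 at 0.0265). Rpl22l1 fell by 0.31 with ca-Nfatc1 and rose by 0.24 with ca-Nfatc2 (adjusted p = 0.017 and 0.0485), while Rpl22 had −0.20 (adjusted p = 0.0574, and 0.0151 with the block) and rose by 0.47. The call of Rpl22l1 with ca-Nfatc1 was lost without GFP replicate 2 or ca-Nfatc1 replicate 3, and that with ca-Nfatc2 without GFP replicates 3, 4 or 5, ca-Nfatc1 replicates 1 or 5 or ca-Nfatc2 replicates 1, 3, 4 or 5. Rpl22 passed with ca-Nfatc1 without GFP replicates 3 or 5 or ca-Nfatc1 replicates 1 or 4. Rpl7l1 and Rpl7 had −0.18 (adjusted p = 0.0563, and 0.0124 with the block) and −0.16 with ca-Nfatc1, and rises of 0.43 and 0.46 with ca-Nfatc2. Whether a paralogue differed from its partner was not tested.

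Below the filter were Rpl3l, Rpl10l, Rpl39l and Rps27. Rpl3l, known as the muscle form of Rpl3, had 0.96, 0, 1.12, 2.22 and 0.92 with GFP, 4.09, 3.32, 8.53, 3.03 and 3.89 under ca-Nfatc1 and 1.73, 4.91, 5.26, 4.43 and 2.63 under ca-Nfatc2, which is a few expected counts per library. Rpl10l and Rpl39l were at 0 in 13 and 10 of the 15 libraries. Rps27, which encodes a small subunit protein, was listed at 0 in 10 libraries and had at most 10.96 in the others. Of its 75-base windows 98.5% occur in Gm9846, a copy that RefSeq calls Rps27rt, and Gm9846 had group means of 7282 (GFP), 6521 (ca-Nfatc1) and 6381 (ca-Nfatc2). Its log2 fold changes of −0.17 and −0.19 did not pass (adjusted p = 0.213 and 0.142). Whether reads of Rps27 were counted at Gm9846 was not tested.

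Other ribosomal proteins are encoded by genes with names outside the rule. Fau and Gnb2l1 (Rack1) rose by 0.34 and 0.52 with ca-Nfatc2. With ca-Nfatc1 Gnb2l1 fell by 0.24, and Fau had −0.16 (adjusted p = 0.204). Other mRNAs known for a TOP start encode mostly translation factors. Of 14 tested 11 rose and 1 fell with ca-Nfatc2 (median 0.45), against 35.7% of all genes tested that rose and 32.8% that fell. With ca-Nfatc1 3 rose and 5 fell (median −0.05), against 28.4% of all genes tested in either direction. With ca-Nfatc2 the largest changes were in the RNA-binding protein Hnrnpa1 (1.44), the nucleolar chaperone Npm1 (1.39) and the elongation factor subunit Eef1g (1.12). With ca-Nfatc1 they were in the poly(A)-binding protein Pabpc1 (0.74), the histone chaperone Nap1l1 (−0.73) and Tpt1 (−0.53).

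The list of genes that control, make and process ribosomal RNA, the catalytic part of the particle, had 18 tested genes. With ca-Nfatc2 15 rose and 2 fell (median 0.76), against 35.7% of all genes tested that rose and 32.8% that fell. With ca-Nfatc1 4 rose and 5 fell (median −0.10), which is near the 28.4% of all genes tested that were higher and the 28.4% that were lower. Myc had 242, 325, 394, 417 and 401 with GFP, 557, 529, 553, 587 and 577 under ca-Nfatc1 and 4228, 5642, 5488, 4821 and 5026 under ca-Nfatc2. The 3 groups were thus fully apart, and Myc rose by 0.68 with ca-Nfatc1 and by 3.84 with ca-Nfatc2 on the log2 scale (limma adjusted p = 0.000106 and 1.52e-14). The polymerase I subunit Polr1e and dyskerin (Dkc1), which modifies ribosomal RNA, rose by 1.37 and 1.32 with ca-Nfatc2. With ca-Nfatc1 Mycn rose by 1.27, and Taf1d, part of the polymerase I initiation complex, fell by 0.68.

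Of 14 genes of mTOR signalling and TOP control, 4 rose and 3 fell with ca-Nfatc2 (median −0.05), against 35.7% of all genes tested that rose and 32.8% that fell. With ca-Nfatc1 the 6 that passed all fell (median −0.16), against 28.4% of all genes tested. Deptor and Tsc1, which restrain mTOR signalling, fell by 0.995 and 0.59 with ca-Nfatc2 and by 0.41 and 0.36 with ca-Nfatc1. Eif4e, the cap-binding factor, rose by 0.70 with ca-Nfatc2, and the S6 kinase gene Rps6kb1 fell by 0.34 with ca-Nfatc1. Of 5 genes of the p53 response to free ribosomal proteins, 3 rose with ca-Nfatc2, namely Cdkn2a (1.21), the p53 target Cdkn1a (0.75) and Trp53 (0.47), and 1, Mdm2, fell (−0.39). With ca-Nfatc1 Mdm2 also fell (−0.36), and the other 4 did not pass. Shares over all genes tested are those given for the mTOR list, and 5 genes are too few to set these counts apart from them.

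**Figure D5:**
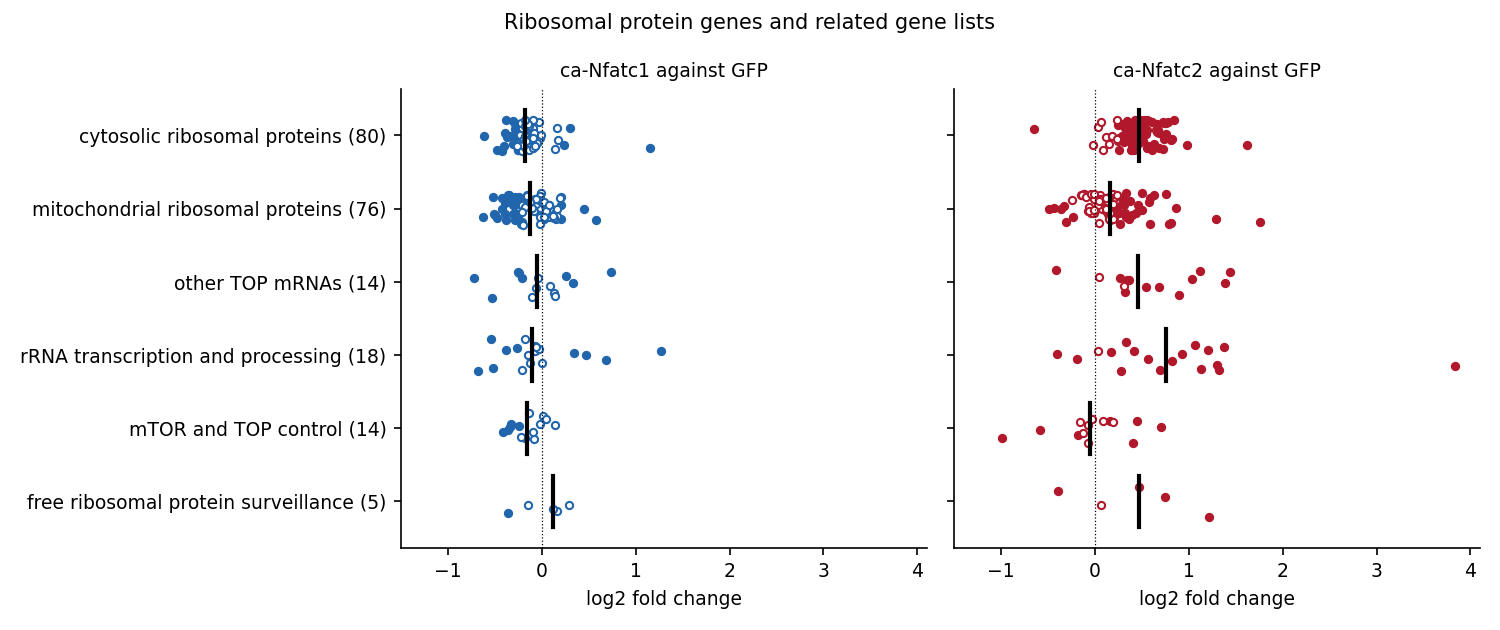
Log2 fold change (x axis) of each tested gene in the cytosolic ribosomal protein set and 5 related lists (y axis, number of genes in brackets), for ca-Nfatc1 and ca-Nfatc2 against GFP. Filled points passed an adjusted p of 0.05 and black lines mark the medians. With ca-Nfatc2 the medians are 0.47 for cytosolic and 0.16 for mitochondrial ribosomal proteins and 0.76 for the rRNA list, where Myc lies farthest right at 3.84.

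Of 76 mitochondrial ribosomal protein genes, whose products serve a separate ribosome, 30 rose and 6 fell with ca-Nfatc2, where 35.7% of all genes tested were higher and 32.8% lower. The share that rose was thus near that of all genes, and the share that fell was below it. With the day as a block 38 rose and 7 fell, against 5447 and 5159 of all 14151 genes tested. The median of the mitochondrial genes was 0.16, against 0.47 for the cytosolic genes and 0.01 for all genes tested. With ca-Nfatc1 5 rose and 30 fell (median −0.12), against 28.4% of all genes tested in either direction. Between the ca-NFATs 53 were higher with ca-Nfatc2 (median 0.29), against 23.6% of all genes tested. Whether the cytosolic and mitochondrial sets differed was not tested.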

How the data were processed

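Per the study's methods and the submitters' processing notes, the authors mapped reads from whole-islet RNA with Bowtie to a RefSeq reference of mm10 and estimated expected counts with RSEM. Versions are not given in the sources used here. The deposited signal is these expected counts divided by a median-by-ratio factor per library. Totals of this signal were 16.3 to 18.1 M. Columns of the authors' own group means, fold changes and posterior probabilities were not used, and a counting test was not run because the values did not come back as whole reads.

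After a filter that kept 14151 genes (75th percentile over 10), log2(value + 1) entered limma 3.58.1 under R 4.3.3, with a variance trend and 1 coefficient per group. The model had no day term, since the study's methods describe none. Tests were two-sided with Benjamini-Hochberg adjustment and a threshold of 0.05. The fit was tested on simulated data. A fold change on this scale understates that of low genes.

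The labels and the study's methods pair libraries of 1 day, since a day's islets were shared by the viruses. Residuals of same-day libraries correlated at 0.05 to 0.47 (mean 0.22, over 0.1 in 12 of 15 pairs), and those of different days at −0.06 on average. P-values measure the spread between pools of mice.

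Genes with values in the text are, per comparison, the 6 largest rises and 6 largest falls among members that passed and moved alike on all 5 days, the 3 smallest changes, members below the filter or against the majority, paralogue pairs, and members of known role. Of each related list, up to 3 genes with the largest change per comparison are named. The members and lists were chosen with earlier results of these data known. Alternatives were other scalings, pseudocounts and filters, the day as a block, 2-group fits, library weights and leaving out each library. Results that need certain genes are not reported here.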

Additional observations from a re-analysis of the deposited data

Results flagged for a closer look

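In groups of 5 libraries, the gap between an extreme value and its neighbour was compared with the group's range by Dixon's criterion (0.71 for 5 values). Of 126 groups of values checked, 1 passed, where chance alone flags about 1 in 20. Rpl13a had 18564 (18563.6) in ca-Nfatc2 replicate 1, and the next value was 16857, so that the gap took up 0.764 of the range. The rise of Rpl13a with ca-Nfatc2 passed the test also without that library.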

How the results depend on the processing

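With ca-Nfatc2 against GFP, 62 to 74 genes rose under every setting and Rpl24 alone fell, and against ca-Nfatc1 76 to 78 were higher. The range without single libraries was 63 to 73 and 76 to 78. Quantile normalization lowered the median of all genes with ca-Nfatc2 to −0.10, with that of the members at 0.40. With ca-Nfatc1 it gave −0.12 for all genes and −0.16 for the members, of which 34 fell and 4 rose. With ca-Nfatc1 the number that fell was 13 with equal totals, 48 with equal medians and 44 with the day as a replicate block, and 10 to 36 without single libraries. The number that rose was 5 with equal totals or library weights, 1 with equal medians and 1 to 5 without single libraries. The median with ca-Nfatc1 stayed negative, from −0.22 to −0.10 without single libraries. Without hormone and Nfat genes in the total, the share was 3.99% with GFP and 5.44% with ca-Nfatc2. The cause of these shifts was not tested.

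Among the named members the block changed 8 calls, all to passing. Over all 80 genes it moved the number that fell with ca-Nfatc1 from 23 to 44 and the number that rose with ca-Nfatc2 from 70 to 72. Rps13, Rpl24, Rpl7a, Rps6, Rps19, Rps27l, Rpl36al, Rplp1 and Rpl39 kept their calls with ca-Nfatc1 under every setting. With ca-Nfatc2 Rpl10 passed with quantile normalization (0.21, adjusted p = 0.00415), Rps6, Rps27l and Rpl39 passed with equal totals, Rps27l also in the 2-group fit, and Rpl22l1 was lost with equal medians or without a filter. With ca-Nfatc1 Rpl23, Rpl41 and Rps4x were lost with equal totals or in the 2-group fit, Rpl41 and Rps4x without a filter, Rpl41 with library weights and Rps4x with quantile normalization. Estimates near 0 that did not pass changed sign. With ca-Nfatc1 and equal totals Rpl13a had 0.048, Rps12 0.060 and Rps23 0.032, and Rps12 had 0.039 with quantile normalization and 0.0070 with library weights. With ca-Nfatc2 Rpl36al had 0.035 with equal totals, Rpl10 had −0.0071 and Rpl41 −0.042 with equal medians, and Rpl41 had −0.072 with quantile normalization. Without single libraries the ranges with ca-Nfatc1 were −0.069 to 0.071 for Rpl13a, −0.16 to 0.015 for Rpl36a, −0.039 to 0.058 for Rps12, −0.081 to 0.066 for Rps23, −0.11 to 0.0082 for Rps25 and −0.13 to 0.0065 for Rps27a. With ca-Nfatc2 they were −0.063 to 0.051 for Rpl36al and −0.0035 to 0.063 for Rpl41.

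Single libraries also decided calls not given above. With ca-Nfatc1, Rpl10a passed without ca-Nfatc1 replicate 4, Rpl36 without GFP replicate 5 or ca-Nfatc1 replicate 1, Rpl3 without GFP replicate 3 or ca-Nfatc1 replicates 1 or 4, and Rpl7l1 without GFP replicate 3, ca-Nfatc1 replicates 1 or 2 or ca-Nfatc2 replicate 4. Between the ca-NFATs, Rpl30 was lost without ca-Nfatc1 replicate 5 or with quantile normalization, and Rpl41 with quantile normalization, library weights or the 2-group fit, or without ca-Nfatc1 replicates 3 or 5 or ca-Nfatc2 replicates 1 or 4.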
